A study of Mus musculus with 6 samples.

Results

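Transcripts of 10 genes that restrain MAP kinase signaling were compared between tissue-resident memory-like (TRM-like) and effector (TEff) CD8+ T cells expanded ex vivo. They were the MAP kinase phosphatase genes *Dusp1*, *Dusp2*, *Dusp4*, *Dusp5*, *Dusp6*, *Dusp10*, and *Dusp16*, the Sprouty genes *Spry1* and *Spry2*, and the Sprouty-related gene *Spred1*. The genes were chosen by name as a functional family, with earlier results of these data known. They were read from a deposited count table of 57126 genes, in which all 10 were found. CD8+ T cells from lymph nodes and spleens of OT-I mice, whose transgenic receptor recognizes an ovalbumin peptide, were stimulated with nano-aAPCs, nanoparticles that carry the peptide-MHC class I complex and an antibody to CD28. Both groups received the beads and IL-2, which the design text gives as mouse IL-2 and the expansion methods as human IL-2. The TEff samples received IL-2 alone, and the TRM-like samples received IL-2, IL-15, and TGF-β together, so that the parts of IL-15 and TGF-β in a difference cannot be told apart. RNA was taken on day 6 from 3 samples per group, and the age of the mice and the number of animals behind the samples are not given in the sources used here.

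ERK, p38, and JNK are the terminal kinases of the MAP kinase cascades, and in T cells the ERK branch carries signals from the T cell receptor, CD28, and cytokine receptors through Ras and Raf. Dual specificity phosphatases (DUSPs) of the MAP kinase phosphatase class switch these kinases off by removing phosphate from a threonine and a tyrosine in their activation loop, and Sprouty and Spred proteins act upstream at Ras and Raf. Many of these genes are themselves transcribed in response to MAP kinase signaling, which makes them feedback inhibitors and, as transcripts, common readouts of recent pathway activity. By convention the nuclear, rapidly induced phosphatases are DUSP1, DUSP2, DUSP4, and DUSP5, the cytoplasmic ERK-directed phosphatases include DUSP6, and DUSP10 and DUSP16 prefer p38 and JNK.

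The sequences just upstream of *Dusp1*, *Dusp5*, and *Spry2* are shown because these were the genes past the threshold once TRM-like replicate 3 was left out. With all 6 samples none of them passed it. Each is the stretch from 250 bases before to the base before the start of the Ensembl canonical transcript on GRCm39, at chr17:26727494-26727743 (minus strand) for *Dusp1*, chr19:53517282-53517531 (plus strand) for *Dusp5*, and chr14:106134793-106135042 (minus strand) for *Spry2*, written in the direction of transcription. For *Dusp1* and *Spry2* the window lies inside the annotated gene, which extends further upstream to 26781102 and 106136446. Any transcript that starts further upstream is not covered by these windows. Capitals mark matches on either strand to the half-site of the cAMP response element (CRE, TGACG), to the CArG box bound by serum response factor, and to a STAT motif (TTCNNNGAA). The whole CRE, TGACGTCA, holds a half-site on each strand, so that its half-sites overlap.
Dusp1: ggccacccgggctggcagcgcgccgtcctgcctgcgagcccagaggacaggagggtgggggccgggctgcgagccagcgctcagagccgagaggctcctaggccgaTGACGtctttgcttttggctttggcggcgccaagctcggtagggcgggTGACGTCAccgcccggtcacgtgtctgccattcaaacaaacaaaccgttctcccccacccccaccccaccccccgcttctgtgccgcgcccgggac
Dusp5: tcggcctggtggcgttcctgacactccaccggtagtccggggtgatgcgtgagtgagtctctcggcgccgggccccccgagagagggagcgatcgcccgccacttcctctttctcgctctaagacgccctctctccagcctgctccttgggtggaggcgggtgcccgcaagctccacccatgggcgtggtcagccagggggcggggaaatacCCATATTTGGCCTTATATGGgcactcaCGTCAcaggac
Spry2: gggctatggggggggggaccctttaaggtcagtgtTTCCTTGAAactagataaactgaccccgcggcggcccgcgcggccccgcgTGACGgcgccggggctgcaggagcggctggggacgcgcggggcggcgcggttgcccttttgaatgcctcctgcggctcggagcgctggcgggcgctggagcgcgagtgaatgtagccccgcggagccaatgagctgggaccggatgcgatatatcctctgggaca

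A whole CRE stood 96 bases before the start of *Dusp1*, and in none of the other 9 genes, against 1.70% of the same windows of 21757 protein-coding genes. The half-site was found in 4 of the 10 genes, *Dusp1*, *Dusp4*, *Dusp5*, and *Spry2*, against 18% of all windows. *Dusp5* alone held CArG boxes, a pair that began 38 and 28 bases before the start, and 1.40% of all windows held at least 1. The STAT motif was found in *Spry2* only, 215 bases before the start, against 7.70% of all windows. A GC box (GGGCGG) was found in 8 of the 10 genes and in 36.3% of all windows. The AP-1 motif TGANTCA, the SMAD motif GTCTAGAC, and the NFAT core TTTCCA were in none of the 10 windows, against 6.18%, 0.239%, and 19.4% of all windows. These matches describe the letters in the window and no binding was measured.

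Between 18319013 and 23622621 reads per sample were counted on genes, and the 10 genes had 84 to 3532 counts in each sample, so that none was near the counting floor. CD3 and CD8 genes, with *Cd2*, marked all samples as CD8+ T cells. These 6 markers summed to 1930 to 2050 CPM (counts per 1e+06 reads, on TMM-normalized library sizes) in the TEff samples and 2450 to 3420 CPM in the TRM-like samples. Against the direction of the sum, *Cd2* was lower in the TRM-like samples, at 150 to 196 CPM against 267 to 290 CPM in TEff. The 3 CD4 T cell markers summed to 0.718 to 1.57 CPM over all samples. The 5 macrophage and monocyte markers summed to 0.549 to 1.32 CPM in the TEff samples and 0.138 to 1.44 CPM in the TRM-like samples, and the 3 dendritic cell markers to 4.14 to 4.25 and 1.89 to 5.02 CPM. The 4 B cell markers summed to 5.94 to 6.78 and 7.29 to 10.4 CPM, the 3 NK cell markers to 9.83 to 22 and 0.0922 to 8.94 CPM, and the 4 stromal and epithelial markers to 48.5 to 65.7 and 21.3 to 45.1 CPM, most of it *Pecam1*. Red cell markers reached at most 0.174 CPM, with *Hba-a1* at 0 in every sample. The part of the NK, B, and stromal markers in the results was not tested. TRM-like replicate 3 stood apart from TRM-like replicates 1 and 2, with a chi-square per gene of 96.3 and 112 against 7.26 between the latter. TRM-like replicates 1 and 2 had a count on 35130 and 35559 genes, where the other samples had one on 24229 to 24908. The results for the 10 genes are therefore given with and without TRM-like replicate 3. TEff replicate 2 also stood apart, to a smaller degree, at 26.1 and 25.4 from TEff replicates 1 and 3 against 3.73 between those. It lay below both for 6 of the 10 genes and above both for 3. Each TEff sample was also left out in turn. The labels do not say whether replicates came from separate mice or cultures, and p-values measure only the spread between these samples. In bulk RNA, fewer cells that express a gene and less RNA per cell cannot be told apart.

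None of the 10 genes passed the threshold between TRM-like and TEff cells (0 of 10, by edgeR's quasi-likelihood test, with the bounds set at 0.05 for the adjusted p and at 0.58 in either direction for the log2 fold change), where 3.01% of all genes tested passed it. DESeq2 and limma-voom also placed 0 of the 10 past it, and 3 of the 10, *Dusp1*, *Dusp5*, and *Dusp16*, had an unadjusted p under 0.05 from edgeR, where 14.8% of all genes did. *Dusp1* and *Dusp5* were lower in every TRM-like sample than in any TEff sample (2 of 10, against 9.71% of all genes), and *Dusp16* was higher (1 of 10, against 10.6%). In the other 7 genes the groups overlapped. The median log2 fold change was 0.22 over the 10 genes and 0.02 over all genes tested. Without TRM-like replicate 3, 2 genes were past the threshold as lower, *Dusp1* and *Dusp5*, where 7.67% of all genes were, and 1 as higher, *Spry2*, where 6.38% were.

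**Figure D1:**
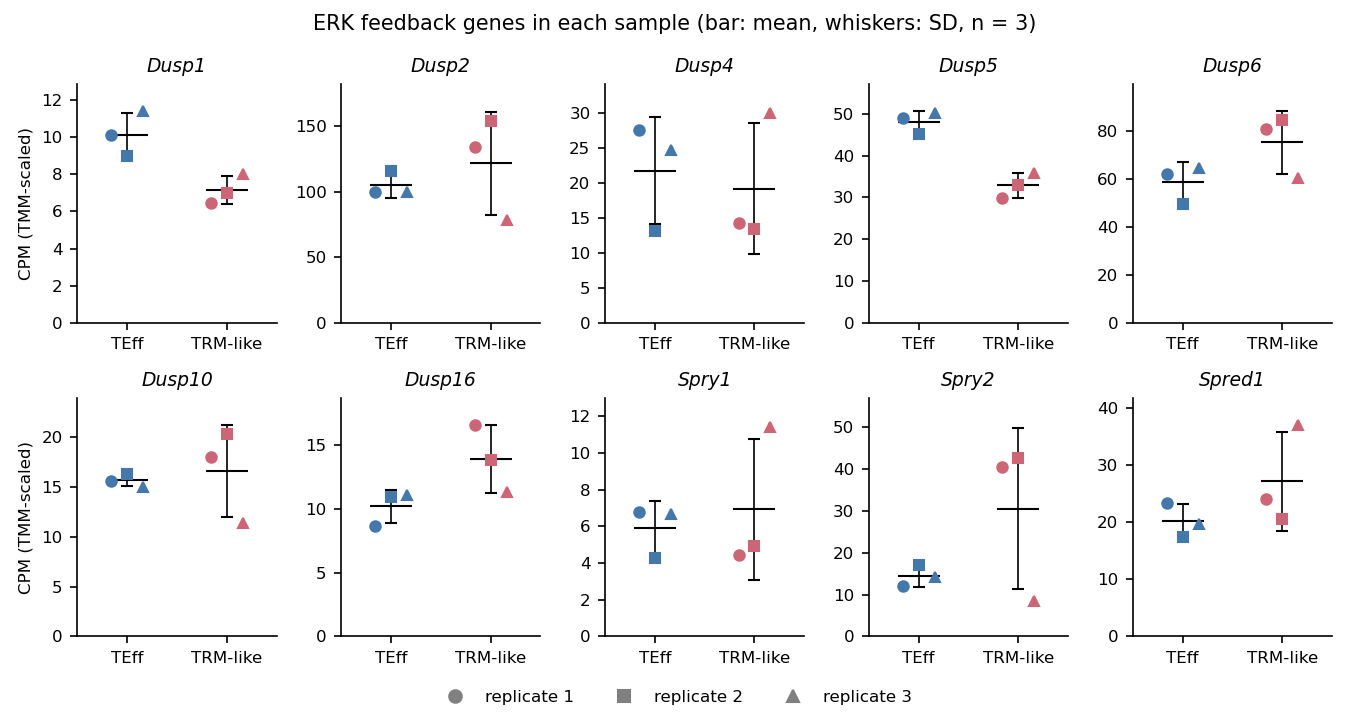
CPM (TMM-scaled, linear axes from 0) of the 10 genes in each sample, with TEff in blue, TRM-like in red, and the marker shape giving the replicate number; bars show the mean and whiskers the SD (n = 3). *Dusp1* and *Dusp5* are lower in all 3 TRM-like samples, while for *Spry2* TRM-like replicates 1 and 2 stand at 40.4 and 42.7 CPM and replicate 3 at 8.39 CPM.

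*Dusp5* (ENSMUSG00000034765; chromosome 19 of GRCm39, 53517532 to 53530862) encodes a nuclear phosphatase specific for ERK. It was at 48.9, 45.2, and 50.3 CPM in TEff replicates 1, 2, and 3, and at 29.8, 33.0, and 35.8 CPM in TRM-like replicates 1, 2, and 3. The highest TRM-like sample was below the lowest TEff sample, and the spread within each group was small, with means of 48.1 ± 2.67 and 32.9 ± 3.00 CPM (SD, n = 3). The log2 fold change was -0.55 (standard error 0.13, 95% interval -0.84 to -0.26), or 1.46-fold lower in TRM-like cells, with an adjusted p of 0.0583 from edgeR. Over the alternatives that kept all 6 samples the adjusted p ran from 0.0187 to 0.0742 and was 0.0191 by DESeq2, and the fold change stayed short of the bound. In the 5 edgeR fits that left out a sample other than TRM-like replicate 3 the adjusted p was 0.122 to 0.282. Leaving out that replicate gave a log2 fold change of -0.62 (edgeR, adjusted p = 0.00163), which is past the threshold.

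*Dusp1* (ENSMUSG00000024190; chromosome 17, 26724564 to 26781102), the immediate early phosphatase that acts on p38, JNK, and ERK, had the same order of samples at a lower level. It was at 10.1, 8.96, and 11.4 CPM in the TEff samples and at 6.45, 6.99, and 7.98 CPM in the TRM-like samples, again with no overlap. Its log2 fold change of -0.51 (standard error 0.17, 95% interval -0.89 to -0.12) had an adjusted p of 0.199 from edgeR. Leaving out TRM-like replicate 3 gave -0.60 (edgeR, adjusted p = 0.0152). *Dusp1* and *Dusp5* were thus the only genes of the 10 that lay on the lower side in all 3 TRM-like samples, and in both TRM-like replicate 3 was the TRM-like sample closest to the TEff samples.

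*Dusp2* (ENSMUSG00000027368; chromosome 2, 127177957 to 127180296), whose nuclear product was first described in activated T cells, had the highest counts of the set. It was at 99.7, 116, and 99.6 CPM in the TEff samples, at 134 and 154 CPM in TRM-like replicates 1 and 2, and at 78.3 CPM in TRM-like replicate 3. TRM-like replicates 1 and 2 were above every TEff sample and replicate 3 below every TEff sample, so that the mean difference was small (log2 fold change 0.22, 95% interval -0.30 to 0.74, adjusted p = 0.731 from edgeR). Without TRM-like replicate 3 the log2 fold change was 0.44 (edgeR, adjusted p = 0.0144), short of 0.58.

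*Dusp4* (ENSMUSG00000031530; chromosome 8, 35274442 to 35287048), a nuclear phosphatase related to DUSP1, split both groups. It was at 27.6 and 24.7 CPM in TEff replicates 1 and 3 but at 13.2 CPM in TEff replicate 2, and at 14.3 and 13.4 CPM in TRM-like replicates 1 and 2 but at 30.0 CPM in TRM-like replicate 3. The lowest sample was thus a TEff sample and the highest a TRM-like sample, with the rest of each group on the other side, and the log2 fold change was -0.18 (standard error 0.35, 95% interval -0.99 to 0.62, adjusted p = 0.864 from edgeR). Without TRM-like replicate 3 it was -0.67 (edgeR, adjusted p = 0.0645), without TEff replicate 1 it was 0.03, and without TRM-like replicate 2 it was 0.02.

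*Dusp6* (ENSMUSG00000019960; chromosome 10, 99086564 to 99103361) encodes the cytoplasmic phosphatase that is selective for ERK. Its TEff samples were at 61.9, 49.3, and 64.5 CPM, and its TRM-like samples at 80.6, 84.6, and 60.1 CPM. Only TRM-like replicate 3 lay among the TEff samples. The log2 fold change was 0.36 (standard error 0.17, 95% interval -0.03 to 0.74, adjusted p = 0.382 from edgeR), and 0.49 without TRM-like replicate 3 (edgeR, adjusted p = 0.0145), short of 0.58. *Dusp6* therefore differed from *Dusp5*, the other ERK-selective phosphatase, in the sign of its value in TRM-like replicates 1 and 2, which stood 0.47 and 0.54 above the TEff mean on the log2 scale for *Dusp6* and at -0.69 and -0.54 relative to it for *Dusp5*. A test of the difference between these genes was not run.

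The phosphatases directed at p38 and JNK were also higher in TRM-like replicates 1 and 2. *Dusp16* (ENSMUSG00000030203; chromosome 6, 134692431 to 134784241) was at 8.69, 10.9, and 11.1 CPM in the TEff samples and at 16.6, 13.8, and 11.3 CPM in the TRM-like samples. Its groups did not overlap, but TRM-like replicate 3 lay next to TEff replicate 3. The log2 fold change was 0.44 (standard error 0.19, 95% interval 0.02 to 0.87, adjusted p = 0.313 from edgeR), and 0.57 without TRM-like replicate 3 (edgeR, adjusted p = 0.0172), just short of 0.58. *Dusp10* (ENSMUSG00000039384; chromosome 1, 183745499 to 183807842) was the most even gene among the TEff samples, at 15.6, 16.3, and 15.0 CPM, and was at 18, 20.3, and 11.4 CPM in the TRM-like samples. TRM-like replicates 1 and 2 were above all TEff samples and replicate 3 below all of them, with a log2 fold change of 0.08 (95% interval -0.39 to 0.55, adjusted p = 0.895 from edgeR). Leaving out TRM-like replicate 3 gave 0.28 (edgeR, adjusted p = 0.131), and leaving out TRM-like replicate 2 gave -0.10.

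*Spry2* (ENSMUSG00000022114; chromosome 14, 106128766 to 106136446), which encodes a membrane-associated inhibitor of Ras and Raf activation, had the largest fold change of the set. It was at 12.0, 17.0, and 14.2 CPM in the TEff samples, at 40.4 and 42.7 CPM in TRM-like replicates 1 and 2, and at 8.39 CPM in TRM-like replicate 3. TRM-like replicates 1 and 2 were above every TEff sample, and replicate 3 was the lowest of all 6 samples. With all samples the log2 fold change was 1.08 (standard error 0.49, 95% interval -0.02 to 2.18, adjusted p = 0.348 from edgeR). Without TRM-like replicate 3 it was 1.52 (standard error 0.14, 95% interval 1.22 to 1.82, edgeR adjusted p = 6.27e-06), or 2.87-fold higher. When genes with low counts were kept in the test, *Spry2* passed at the same fold change (adjusted p = 3.25e-07 from edgeR), but that fit gave the gene's own spread almost no weight, with a standard error of 0.18. It did not pass by DESeq2 (adjusted p = 0.167), by limma-voom (0.583), or with edgeR on genes of 10 or more counts in each sample (0.348).

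*Spry1* (ENSMUSG00000037211; chromosome 3, 37693897 to 37698755), the paralog of *Spry2*, differed from it in the order of the TRM-like samples. It was at 6.81, 4.25, and 6.69 CPM in the TEff samples, at 4.45 and 4.94 CPM in TRM-like replicates 1 and 2, and at 11.4 CPM in TRM-like replicate 3. TRM-like replicate 3 was the highest sample for *Spry1* and the lowest for *Spry2*, and it stood 1.26 above the mean of TRM-like replicates 1 and 2 on the log2 scale for *Spry1* and at -2.29 relative to it for *Spry2*. The log2 fold change of *Spry1* was 0.22 (standard error 0.37, 95% interval -0.60 to 1.05, adjusted p = 0.838 from edgeR), and -0.34 without TRM-like replicate 3 (edgeR, adjusted p = 0.301).

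*Spred1* (ENSMUSG00000027351; chromosome 2, 116951524 to 117018277) encodes a protein that brings the Ras GTPase activator neurofibromin to the membrane. It was at 23.4, 17.5, and 19.7 CPM in the TEff samples and at 24.1, 20.5, and 37.0 CPM in the TRM-like samples. Here TRM-like replicate 3 was the highest of all samples and TRM-like replicates 1 and 2 were close to the TEff range. The log2 fold change was 0.43 (standard error 0.22, 95% interval -0.08 to 0.94, adjusted p = 0.442 from edgeR), and 0.13 without TRM-like replicate 3 (edgeR, adjusted p = 0.577).

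**Figure D2:**
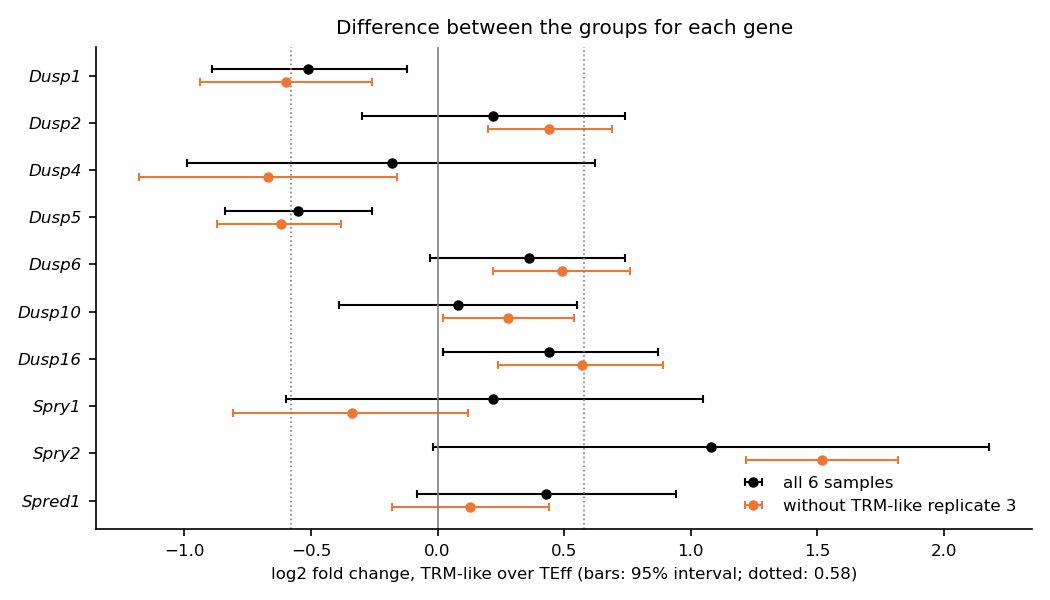
Log2 fold change of TRM-like over TEff for each of the 10 genes, with 95% intervals from edgeR, in all 6 samples (black) and without TRM-like replicate 3 (orange); dotted lines mark 0.58 in either direction. The intervals are not adjusted for the number of genes tested. With all samples the interval lies on 1 side of 0 for 3 of the 10 genes, where 14.8% of all genes had an unadjusted p under 0.05. Without TRM-like replicate 3, 6 of the 10 genes had an edgeR adjusted p below 0.05, where 20.5% of all genes did. For *Spry1* the value changes sign.

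Among the TRM-like samples, replicate 3 was above replicates 1 and 2 for 5 of the 10 genes (*Dusp1*, *Dusp4*, *Dusp5*, *Spry1*, and *Spred1*) and below both for the other 5 (*Dusp2*, *Dusp6*, *Dusp10*, *Dusp16*, and *Spry2*). The gap between replicate 3 and the mean of replicates 1 and 2 had a median size of 0.74 on the log2 scale over the 10 genes, against 0.37 over all genes that had 10 or more counts in each of the samples. Between replicates 1 and 2 the median gap of the 10 genes was 0.15. In 9 of the 10 genes the log2 values varied more among the TRM-like than among the TEff samples, with *Dusp1* the exception, and the median SD was 0.44 in TRM-like and 0.20 in TEff, against 0.25 and 0.16 over the same well-counted genes. With TRM-like replicate 3 left out, 6 of the 10 genes had an edgeR adjusted p below 0.05 at any fold change, where 20.5% of all genes did. These were *Dusp1* and *Dusp5* as lower and *Dusp2*, *Dusp6*, *Dusp16*, and *Spry2* as higher. The part that the difference in the number of genes with a count, which is shared by TRM-like replicates 1 and 2, plays in these values was not tested. In a GENCODE release later than that of the counts, exons on the opposite strand cover 32.0% of the exon bases of *Dusp2*. They cover 11.0% to 23.0% of those of *Dusp5*, *Dusp6*, *Dusp10*, *Spry1*, and *Spry2*, and at most 2.49% of those of the other 4 genes. The exon bases in that release were 5148 for *Spry2* against a counted length of 2087, and 2481 against 2473 for *Dusp5*. These shares therefore need not hold for the bases that were counted. Whether the counting used strand is not given in the sources used here, so that reads of these genes and of their antisense partners may not be separable.

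Levels per gene length (RPKM, CPM per kilobase of the deposited gene length) allowed the genes to be ranked. *Dusp2* was the highest in both groups, at 65.1 ± 6.01 RPKM in TEff and 75.6 ± 24.3 RPKM in TRM-like cells (SD, n = 3), and its lowest sample was above the highest sample of every other gene of the set. In TEff cells *Dusp6* at 20.9 ± 2.91 and *Dusp5* at 19.5 ± 1.08 RPKM came next, with overlapping ranges, while in TRM-like cells *Dusp6* at 26.8 ± 4.70 RPKM lay above *Dusp5* at 13.3 ± 1.21 RPKM with no overlap (SD, n = 3). *Dusp4*, *Spry2*, and *Dusp10* followed in TEff cells at 7.97, 6.90, and 5.61 RPKM on average, with each range overlapping that of its neighbor. *Dusp1* at 4.28 and *Spred1* at 2.98 RPKM came next and stood apart from their neighbors in the order. *Spry1* at 2.04 and *Dusp16* at 1.36 RPKM were the lowest and overlapped. In TRM-like cells *Spry2* came after *Dusp6* on average at 14.6 RPKM, but its samples ran from 4.02 to 20.5 RPKM and overlapped those of *Dusp5*, and the genes from *Dusp4* at 7.02 down to *Dusp16* at 1.84 RPKM each overlapped the next.

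Summed over the 7 phosphatase genes, the level per length was 125, 124, and 126 RPKM in the TEff samples and 140, 156, and 104 RPKM in TRM-like replicates 1, 2, and 3. The TEff samples were nearly equal, and the TRM-like samples lay on both sides of them. *Dusp2* made up 49.5%, 58.2%, and 49.0% of that sum in the TEff samples and 59.1%, 61.2%, and 46.4% in the TRM-like samples. *Dusp5* made up 15.9%, 14.8%, and 16.2% in TEff and 8.59%, 8.56%, and 13.9% in TRM-like samples, lower in every TRM-like sample. *Dusp6* made up 17.7%, 14.2%, and 18.4% in TEff and 20.5%, 19.4%, and 20.6% in TRM-like samples, higher in every TRM-like sample. In TRM-like replicate 3, however, *Dusp6* itself was within the TEff range, at 21.5 RPKM against 17.6 to 23.1 RPKM, and the sum was the lowest of all samples, with *Dusp2* at 48.4 RPKM.

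**Figure D3:**
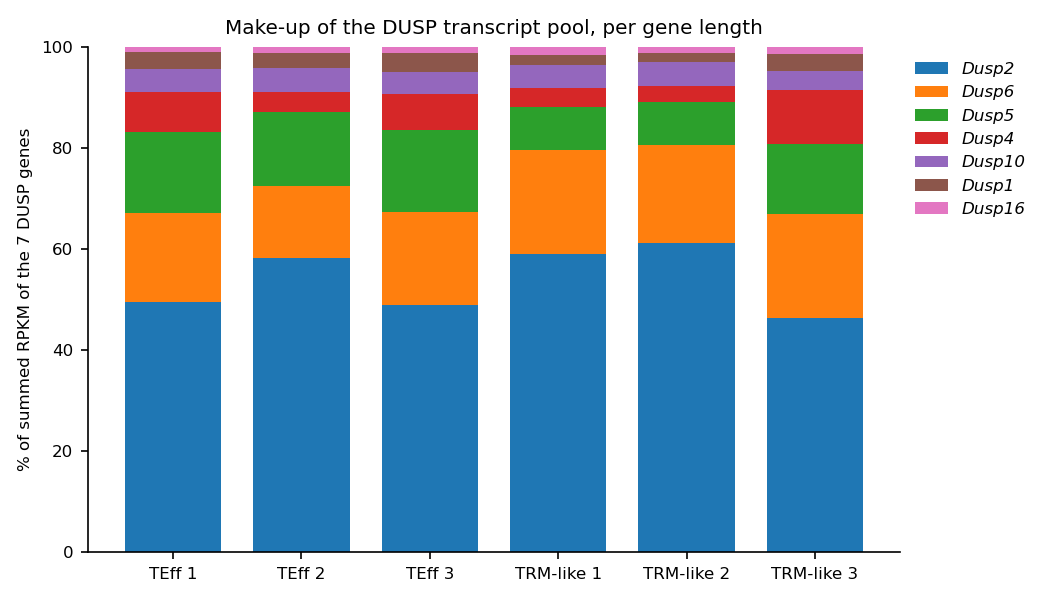
Share (%) of each of the 7 phosphatase genes in their summed RPKM, 1 bar per sample. The *Dusp6* segment is between 19.4% and 20.6% in the TRM-like samples and between 14.2% and 18.4% in the TEff samples, and the *Dusp5* segment is smallest in TRM-like replicates 1 and 2.

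The remaining genes of the same families were read from the same fit. Of 7 such genes, 6 were tested and 1 passed the threshold, where 3.01% of all genes tested passed it. *Dusp7*, which encodes a cytoplasmic phosphatase of the same ERK-directed class as DUSP6, fell from 38.5, 46.0, and 39.6 CPM in the TEff samples to 10.5, 10.7, and 22.7 CPM in the TRM-like samples. This is a log2 fold change of -1.50 ± 0.28 (standard error, edgeR adjusted p = 0.0254), and -1.97 without TRM-like replicate 3. It lost the threshold in each of the 5 fits that left out another sample, with adjusted p of 0.0694 to 0.128 from edgeR and log2 fold changes of -1.54 to -1.31. *Dusp7* thus had the opposite sign to *Dusp6*, with TRM-like replicate 3 between the other TRM-like samples and the TEff samples. The other 5 tested genes did not pass. *Dusp9*, another cytoplasmic ERK-directed phosphatase, was at 1.23, 0.607, and 1.27 CPM in TEff and 2.40, 2.18, and 3.04 CPM in TRM-like samples (adjusted p = 0.0848 from edgeR). *Spry4*, another widely used ERK readout, was at 0.861 to 1.51 CPM in TEff and 1.09 to 1.48 CPM in TRM-like samples. *Spry3* was not analysed here. Of the 13 atypical DUSPs, which lack the MAP kinase binding domain, 10 were tested and 0 passed the threshold (log2 fold change of -0.98 and adjusted p = 0.0924 from edgeR for *Dusp14*, the smallest). At an unadjusted p under 0.05 there were 3 of these 10 tested genes from edgeR, where 14.8% of all genes were. DESeq2 placed 1 and limma-voom 0 past the threshold.

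The kinases that these inhibitors act on or restrain were read from the same fit. *Mapk3*, an ERK gene, had a log2 fold change of 0.38 (95% interval 0.06 to 0.70, adjusted p = 0.246 from edgeR) and did not pass. Of 13 tested genes of the p38 and JNK cascades 0 passed, with 4 at an unadjusted p under 0.05 from edgeR. Over all genes tested these shares were 3.01% and 14.8%. DESeq2 and limma-voom also placed 0 of the 13 past the threshold. *Mapk14*, the gene of p38α, had the smallest p-value, with 79.5, 85.5, and 83.5 CPM in TEff and 58.3, 53.4, and 72.4 CPM in TRM-like samples (log2 fold change -0.43, adjusted p = 0.196 from edgeR). The median log2 fold change of the p38 and JNK list was -0.13.

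Of 21 other inhibitors of Ras and ERK signaling, 6 passed the threshold, 3 in each direction, where 3.01% of all genes tested passed it. The list was chosen with earlier results of these data known. Those that fell were *Dok2*, an adaptor that recruits a Ras GTPase activator, from 113, 118, and 115 to 63.4, 64.2, and 52.8 CPM (log2 fold change -0.94, adjusted p = 0.00557 from edgeR), *Dgka*, a diacylglycerol kinase that removes the activator of RasGRP1 (-0.96, adjusted p = 0.0109), and *Rasal2*, a Ras GTPase activator at 1.67 to 2.70 CPM in TEff and 0.654 to 0.786 CPM in TRM-like samples (-1.57, adjusted p = 0.0257). Those that rose were *Rasa2*, a Ras GTPase activator, from 42.2, 42.0, and 47.3 to 70.5, 65.0, and 72.0 CPM (0.66, adjusted p = 0.0235 from edgeR), *Dok1*, the paralog of *Dok2*, from 26.6, 25.9, and 27.5 to 57.4, 64.0, and 37.7 CPM (0.99, adjusted p = 0.0274), and *Errfi1*, an inhibitor of the EGF receptor family (0.66, adjusted p = 0.0491). Within this list, then, the paralogs *Dok1* and *Dok2* had opposite signs in all 3 TRM-like samples. The median log2 fold change of the list was -0.10.

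Of 17 tested genes induced through ERK, 3 passed the threshold, where 3.01% of all genes tested passed it. *Ier3*, an immediate early gene, fell from 24.4, 28.9, and 27.0 to 5.32, 4.94, and 9.13 CPM (log2 fold change -2.05, standard error 0.24, adjusted p = 0.00232 from edgeR), and *Etv5*, an ETS factor used as an ERK readout, from 3.89, 2.68, and 4.20 to 1.09, 1.22, and 1.01 CPM (-1.69, adjusted p = 0.0107). *Cd69*, the activation and residency marker, rose from 42.7, 39.1, and 44.8 to 77.4, 79.8, and 60.9 CPM (0.79, adjusted p = 0.0223 from edgeR). The immediate early genes *Fosb*, *Fos*, *Egr1*, *Junb*, and *Ier2* did not pass, and of these only *Ier2* had a negative value. *Fosb* had the highest log2 fold change of the list, at 1.42 (adjusted p = 0.267 from edgeR, on 5 to 49 counts per sample). Log2 fold changes were 0.40 for *Fos* (adjusted p = 0.627 from edgeR, on 12 to 26 counts per sample) and 0.37 for *Egr1* (adjusted p = 0.439). They were 0.11 for *Junb* (adjusted p = 0.864 from edgeR) and -0.37 for *Ier2* (adjusted p = 0.234), which was lower in every TRM-like sample than in any TEff sample. The list had a median log2 fold change of 0.17, with 10 genes above 0 and 7 below. Of the 11 pathway genes past the threshold across the 6 lists, *Ier3* kept it in each of the 16 alternatives. *Dok2* lost it without TEff replicate 3 (adjusted p = 0.0504 from edgeR), *Etv5* without TEff replicate 1 or 3 (0.0867 and 0.0837), and *Dgka* without TEff replicate 1 or 3 or TRM-like replicate 1 (0.0660, 0.0548, and 0.0567). *Rasal2* lost it in 4 of the 5 fits that left out a sample other than TRM-like replicate 3, at up to 0.171. *Rasa2*, *Dok1*, *Errfi1*, and *Cd69* lost it in all 5, at adjusted p of 0.0625 to 0.224 from edgeR, with no change of sign.

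**Figure D4:**
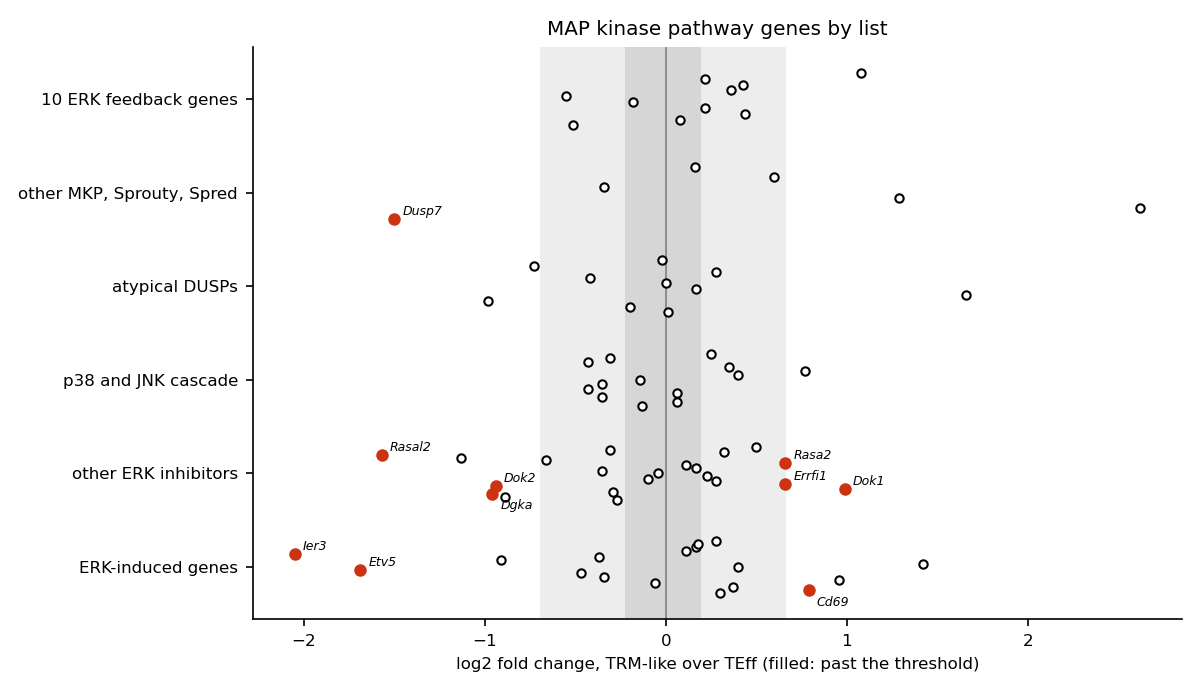
Log2 fold change of TRM-like over TEff for every tested gene of the 10-gene set and 5 pathway lists (without the Ras-ERK cascade), 1 point per gene; filled red points passed the threshold. Grey bands span the 25th to 75th (-0.22 to 0.19) and 5th to 95th (-0.69 to 0.66) percentiles of all genes that had 10 or more counts in each sample, and none of the 10 feedback genes is filled.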

How the data were processed

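The deposited table holds raw read counts per gene for 6 samples, with the gene length in bases. Total RNA had been made into stranded libraries, and the authors trimmed reads with Cutadapt 4.8 and mapped and counted them with Rsubread on a GENCODE annotation of GRCm39. They used DESeq2 1.40.2 downstream and removed a batch effect for display, without naming the batch, so none enters here. The strand and multimapping settings of the counting are not given in the sources used here. Groups and replicate numbers came from the sample titles.

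The genes tested were the 26154 of 57126 that had 1 or more counts in 3 or more samples. They were tested with edgeR 4.0.16 (quasi-likelihood, TMM normalization, R 4.3.3) and adjusted by Benjamini-Hochberg over all of them. A gene passed the threshold when its adjusted p was below 0.05 and its log2 fold change exceeded 0.58 in either direction. DESeq2 1.42.0 and limma-voom (limma 3.58.1), other normalizations and filters, a replicate block, and leaving out each sample were alternatives. CPM and RPKM were computed from the counts on TMM-scaled library sizes, and log2 CPM used a prior count of 2. Symbols, coordinates, and upstream sequences came from a later GENCODE release and the GRCm39 genome, in which 56620 of the 57126 gene identifiers were found. Scripts were tested on simulated counts in which 200 genes changed 4-fold. There 4.76% of the calls by edgeR, 13.2% by DESeq2, and 4.84% by limma-voom were false. Smaller changes and a sample that stood apart were not simulated.

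The members and lists were chosen with earlier results of these data known. All 10 genes are described. From each other list, genes past the threshold were named, up to 3 per direction by p-value, or else the gene with the smallest p-value. *Dusp9*, *Spry4*, *Mapk3*, *Fos*, *Fosb*, *Egr1*, *Junb*, *Ier2*, *Egr2*, *Egr3*, *Etv4*, *Spred2*, and *Spred3* were named after their values were seen. Some genes of the Ras-ERK cascade list are not reported here.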

Additional observations from a re-analysis of the deposited data

How the results depend on the processing

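The number of the 10 genes past the threshold was 1 (*Spry2*) with no filter on low counts and 1 (*Spry2*) with the replicate block, and ran from 0 to 3 when each sample was left out, with 3 (*Dusp1*, *Dusp5*, and *Spry2*) only without TRM-like replicate 3. It was 0 under DESeq2, limma-voom, the other normalizations and filters, and a test of protein-coding genes alone, which was chosen after seeing the data. In both fits that called *Spry2* with all samples, the prior degrees of freedom were 1e+06 against 4.97, so that each gene's own spread had almost no weight. The pathway lists had 11 genes past the threshold, 20 with no filter, 20 with the replicate block, and 1 (without TEff replicate 3) to 25 (without TRM-like replicate 3) when a sample was left out. Over all genes the count was 786, and 1264 by DESeq2, 1868 with no filter, 2034 with the block, 3579 without TRM-like replicate 3, and 263 to 443 without each other sample. Leaving out a sample changed the sign of *Dusp4* (-0.67 to 0.03), *Dusp10* (-0.10 to 0.28), and *Spry1* (-0.34 to 0.46). The cause was not tested. The replicate numbers were not shown to pair the samples, since deviations from the group means of samples with the same number correlated at -0.292, 0.309, and 0.389 over 14822 genes, and not every sample correlated best with its own number. TEff replicate 2 correlated at 0.519 and 0.309 with TRM-like replicates 1 and 2 and at -0.492 with TRM-like replicate 3. TEff replicates 1 and 3 correlated at 0.31 and 0.389 with TRM-like replicate 3 and at -0.441 to -0.214 with TRM-like replicates 1 and 2. The part of this pattern, present in both groups, in the results without TRM-like replicate 3 was not tested. With the block and only genes at 10 or more counts in each sample, 0 of the 10 genes and 13 list genes were past the threshold. *Errfi1* was short of it in that fit (adjusted p = 0.0506) and by limma-voom (adjusted p = 0.0561). Each of the 10 genes had 84 or more counts in every sample, and 3 samples per group limit the precision.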

Other observations

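Other genes of the lists also split the TRM-like samples, with replicates 1 and 2 on 1 side and replicate 3 on the other. *Egr3*, a zinc finger factor induced by T cell receptor signaling, was at 8.46, 11.6, and 8.68 CPM in the TEff samples and at 26.5, 24.3, and 5.03 CPM in TRM-like replicates 1, 2, and 3 (log2 fold change 0.96, adjusted p = 0.429 from edgeR). Its paralog *Egr2* was at 8.69, 11.0, and 8.34 CPM in TEff and at 11.2, 12.8, and 3.00 CPM in TRM-like samples. In both, as for *Spry2*, TRM-like replicate 3 was the lowest of all samples and TEff replicate 2 the highest TEff sample. *Spred3*, a relative of *Spred1*, was at 1.42, 1.52, and 0.884 CPM in TEff and at 2.44, 2.62, and 0.738 CPM in TRM-like samples, with the same lowest sample.

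*Etv4*, an ETS factor, split the samples of both groups as *Dusp4* did. It was at 4.02, 1.97, and 3.87 CPM in the TEff samples and at 1.57, 1.31, and 4.24 CPM in the TRM-like samples (log2 fold change -0.47, adjusted p = 0.698 from edgeR), with TRM-like replicate 3 the highest sample and TEff replicate 2 the lowest TEff sample. *Spred2*, which encodes another Spred protein, was at 8.82, 8.40, and 10.5 CPM in TEff and at 5.71, 5.64, and 10.6 CPM in TRM-like samples, with TRM-like replicate 3 again the highest. These genes were picked after their values were seen, and no test of likeness was run.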
